A study of Mus musculus with 12 samples.

Results

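The splicing factor and SR protein kinase genes of single mouse ovarian follicles were examined in a comparison of vitrified with fresh follicles, vitrification being cryopreservation by cooling into a glass-like state. The members were the genes whose symbols begin as those of the SR proteins (Srsf), the SR protein kinases (Srpk), the CDC-like kinases (Clk1 to Clk4), the Transformer-2 proteins (Tra2a, Tra2b), the hnRNP proteins (Hnrnp), the small nuclear ribonucleoproteins (Snrp), the SF3A, SF3B and U2AF subunits, the PRPF proteins and the LUC7-like proteins, with Rsrp1. Symbols marked as pseudogenes were left out. There were 79 such genes among the 11806 of the table, and all 79 had an adjusted p. Of 81 protein-coding symbols of the GENCODE annotation that match the same rule, the other 2, Srpk3 and Srsf12, were not analysed here. The vitrified group and the fresh group had 6 follicles each, every one a separate library, taken from CD-1 mice, an outbred stock, aged 16 days. Follicles of both groups were kept for 8 days, each in its own bead of 0.5% alginate, in medium that held recombinant follicle-stimulating hormone at 10 mIU/mL. The labels do not say which follicles came from the same animal, so the p-values measure the spread between these follicles as if they were independent. A follicle holds granulosa cells, an oocyte and, around them, theca cells, so each library is a mixture.

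The data were the authors' own comparison, a list of genes with a total pooled over the libraries, a fold change of vitrified over fresh follicles, a p-value and an adjusted p. No value per follicle was used, so no level, spread or overlap of the groups can be shown follicle by follicle. The 95% intervals were derived from each fold change and its p-value. The pooled totals of the 79 members summed to 128956 per the authors' deposited table, 0.542% of the sum over all genes, and ran from 68.3 for Hnrnpa0 to 13268 for Hnrnpk. Markers of the follicle's cells were checked in the same table. Of the granulosa markers 11 of 12 were found, with pooled totals of 644 to 1121840 per the authors' deposited table, of the oocyte markers 8 of 13, with totals of 53.7 to 369, and of the theca markers 7 of 8, with totals of 382 to 15259. Markers of immune cells were found for 1 of 4 and of endothelial cells for 3 of 4.

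Splicing removes introns from messenger RNA precursors. The U1 particle marks the start of the intron, U2AF and the U2 particle with its SF3A and SF3B subunits mark its end and branch point, and the U4, U5 and U6 particles then join with their PRPF proteins to form the catalytic spliceosome. A ring of Sm proteins is the shared core of the U1, U2, U4 and U5 particles. SR proteins mostly favour and hnRNP proteins mostly oppose the use of the exons they bind, and the SRPK and CLK kinases phosphorylate SR proteins and so set where they lie in the cell and how active they are. In growing follicles, granulosa cells divide while the oocyte stores spliced messenger RNA for the embryo, and Srsf3 is known to be needed in the mouse oocyte.

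Rsrp1 rose in vitrified follicles, and no other member passed the threshold of 0.05 on the adjusted p. Rsrp1 encodes an arginine- and serine-rich protein with little known function. Its fold change was 1.96 per the authors' deposited table, a log2 value of 0.97 with a derived 95% interval of 0.55 to 1.38. The adjusted p was 0.0034 per the authors' deposited table, and the p was the 16th lowest of 10963 tested genes. With the same statistics read against a t distribution of 10 degrees of freedom, the call was lost (adjusted p = 0.62), as were those of all other genes, and which distribution the authors' test used is not known. So 1 of 79 members was called, while 0.529% of all tested genes were called, 0.246% as higher and 0.283% as lower. The gene lies on chromosome 4 from 134923592 to 134927671 on the plus strand in GRCm38, with no exon overlapping another annotated gene and no 50-base window of its transcripts found in another gene. Its pooled total of 12276 per the authors' deposited table was the third highest of the members. Per kilobase of the principal transcript Rsrp1 had 7019, second among the members after Hnrnpa2b1 with 7646. In these mixed samples, more cells that carry a transcript and more of it per cell cannot be told apart.

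A wider group of members had an unadjusted p under 0.05. They numbered 13 of 79, or 16.5% of the members, against 7.02% of all tested genes per the authors' deposited table. Higher values were found for 8 of the 13, Rsrp1, Hnrnpll, Hnrnpu, Clk4, Srsf2, Hnrnpul1, Clk1 and Luc7l2, or 10.1% of the members, against 3.24% of all tested genes. Lower values were found for 5, among them Sf3b5, Hnrnpa0, Snrpe and Sf3b1, or 6.33% of the members, against 3.79% of all tested genes. With the t distribution of 10 degrees of freedom 4 of 79 members had higher values at p under 0.05, against 2.1% of all tested genes. Lower values were had by 5 of 79, against 2.44%. Members were measured with smaller errors than most genes, with a median derived standard error of 0.23 on the log2 scale against 0.29. Among genes with a pooled total of at least 1000, 17.9% of 28 members and 11.4% of 2007 tested genes had such a p. From 300 to 1000 it was 7 of 28 members and 7.60% of 3567 tested genes, and below 300 it was 1 of 23 members and 5.01% of 5389 tested genes. The median log2 fold change of the members was -0.04, with 47 lower and 32 higher, and that of all tested genes was -0.02, with 53.2% lower.

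**Figure D1:**
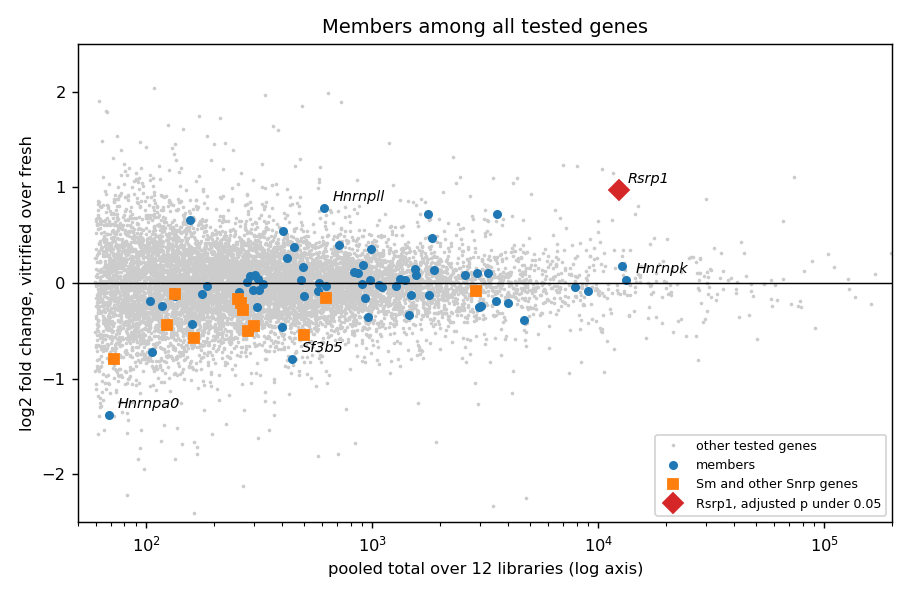
Log2 fold change of vitrified over fresh follicles (vertical axis) against the pooled total over 12 libraries (horizontal log axis) for each tested gene. Grey points are other genes, blue points are members, orange squares are the Snrp genes and the red diamond is Rsrp1. A further 19 tested genes lie outside the axes. Rsrp1 stands at 0.97, the highest value of the members, and all 12 Snrp genes lie below 0.

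The promoter of the called gene is shown beside that of Clk4, to let their sequences be compared. Clk4 is a kinase gene and 1 of the 8 members with a higher value at p under 0.05. Its adjusted p was 0.53 per the authors' deposited table. Apart from that of Rsrp1, promoters of the rest of the 8 are not shown, so this pair does not stand for them. Promoters, 250 bases before to 50 bases after the start, were found in the RefSeq table for 68 of the 79 members. Capitals mark TGACGT, the core of the cyclic AMP response element, and GCGCATGC, most of the site of nuclear respiratory factor NRF1, searched on both strands. The Rsrp1 promoter is chr4:134923375-134923674 and that of Clk4 chr11:51262864-51263163, both on the plus strand in GRCm38.p6.
Rsrp1: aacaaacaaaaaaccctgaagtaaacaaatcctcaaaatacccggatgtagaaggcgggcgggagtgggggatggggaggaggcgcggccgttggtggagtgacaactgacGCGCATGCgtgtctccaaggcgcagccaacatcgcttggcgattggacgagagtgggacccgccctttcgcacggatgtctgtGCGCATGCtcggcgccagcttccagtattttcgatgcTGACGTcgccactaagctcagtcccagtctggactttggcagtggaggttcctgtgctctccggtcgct
Clk4: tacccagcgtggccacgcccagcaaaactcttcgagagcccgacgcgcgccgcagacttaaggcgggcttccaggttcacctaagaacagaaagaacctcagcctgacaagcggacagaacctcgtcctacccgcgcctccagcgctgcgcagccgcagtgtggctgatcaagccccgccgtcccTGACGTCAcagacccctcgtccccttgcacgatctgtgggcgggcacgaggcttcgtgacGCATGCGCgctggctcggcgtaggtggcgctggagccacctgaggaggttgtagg

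TGACGT occurred once on either strand in the Rsrp1 promoter and on both strands, overlapping as TGACGTCA, in that of Clk4. GCGCATGC occurred 2 times in the Rsrp1 promoter and 1 time in that of Clk4. These motifs were chosen with both sequences in view. TGACGT stood in 22 of 91 promoters of members, or 24.2%, against 11.9% of the 10280 promoters of tested genes and 7.51% of all 32851 promoters. GCGCATGC stood in 6 of the 91, or 6.59%, against 5.58% of the promoters of tested genes and 2.71% of all promoters. Other motifs were searched too. CCGGAA stood in 41.8% of the member promoters against 29.0% of those of tested genes, and CCAAT in 47.3% against 38.5%. TATAAA stood in 8.79% against 6.79% and GGGCGG in 64.8% against 65.0%. The 91 promoters belong to 68 genes, so some genes count more than once. A match of letters is a description of the sequence and was not tested as a binding site.

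The kinase genes had values on both sides of 0. Clk1 and Clk4, nuclear kinases whose own transcripts are known to be held back in the nucleus with unspliced introns, both had higher values. The log2 fold change of Clk4 was 0.55 (0.08 to 1.01) with p = 0.021 per the authors' deposited table, on a pooled total of 401. For Clk1 it was 0.47 (0.03 to 0.91) with p = 0.036 per the authors' deposited table, on a total of 1837. Neither passed, at adjusted p of 0.53 and 0.65 per the authors' deposited table. The other CLK genes had values below 0. Clk2 stood at -0.72 (-1.58 to 0.14) on a total of only 106, and Clk3, of which 15.2% of exonic bases overlap a gene on the opposite strand, at -0.15 (-0.49 to 0.18) per the authors' deposited table. The differences among the 4 CLK genes were not tested, since the table gives no covariance between genes. The SRPK genes, which act mainly in the cytoplasm and send SR proteins into the nucleus, showed small values. Srpk1 stood at -0.14 (-0.57 to 0.29) and Srpk2 at 0.03 (-0.39 to 0.45) per the authors' deposited table, and both intervals lie within 1.5-fold.

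The SR protein genes were split, with 5 higher and 5 lower and a median log2 fold change of 0.00. Srsf2, an activator of exons that limits its own level through decay of its transcript, had the highest value. It stood at 0.72 (0.07 to 1.37) with p = 0.029 and an adjusted p of 0.60 per the authors' deposited table. Of its exonic bases 25.3% overlap Mettl23 and Mfsd11 on the opposite strand, and whether counting used strand is not stated, so its count is uncertain. Intervals lay within 1.5-fold for 8 of the 10 SR genes, the exceptions being Srsf2 and Srsf9. Srsf3, which shapes exon choice and messenger RNA export, had the highest SR total at 3970 and a log2 fold change of -0.21 (-0.46 to 0.04) per the authors' deposited table. Srsf5 stood at 0.10 (-0.37 to 0.57) and Srsf6 at 0.11 (-0.13 to 0.35) per the authors' deposited table, both close to no difference. Srsf11, Srsf7, Srsf4, Srsf1 and Srsf10 had log2 fold changes of 0.13, 0.03, -0.02, -0.09 and -0.12 per the authors' deposited table. Of the exonic bases of Srsf4 43.0% overlap a gene on the opposite strand, so its count is uncertain too. Srsf9, the member of lowest SR total at 118, stood at -0.24 (-1.06 to 0.58) per the authors' deposited table, an interval too wide to set a limit of 2-fold.

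The Transformer-2 genes encode partners of SR proteins that bind purine-rich exon enhancers, and they pointed in opposite directions. Tra2b stood at -0.34 (-0.68 to 0.01) with p = 0.055 and Tra2a at 0.17 (-0.27 to 0.61) per the authors' deposited table. The LUC7-like genes encode proteins that sit on the U1 particle and influence the choice of the intron's start. All 3 had values above 0, with a median of 0.26, and 46.8% of all tested genes did. Luc7l2 stood at 0.40 (0.02 to 0.78) with p = 0.039 per the authors' deposited table, Luc7l3 at 0.26 (-0.21 to 0.72) and Luc7l at 0.15 (-0.25 to 0.55), and 18.9% of the exonic bases of Luc7l2 overlap a gene on the opposite strand. None of these 3 passed after adjustment, the lowest adjusted p being 0.66 per the authors' deposited table.

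**Figure D2:**
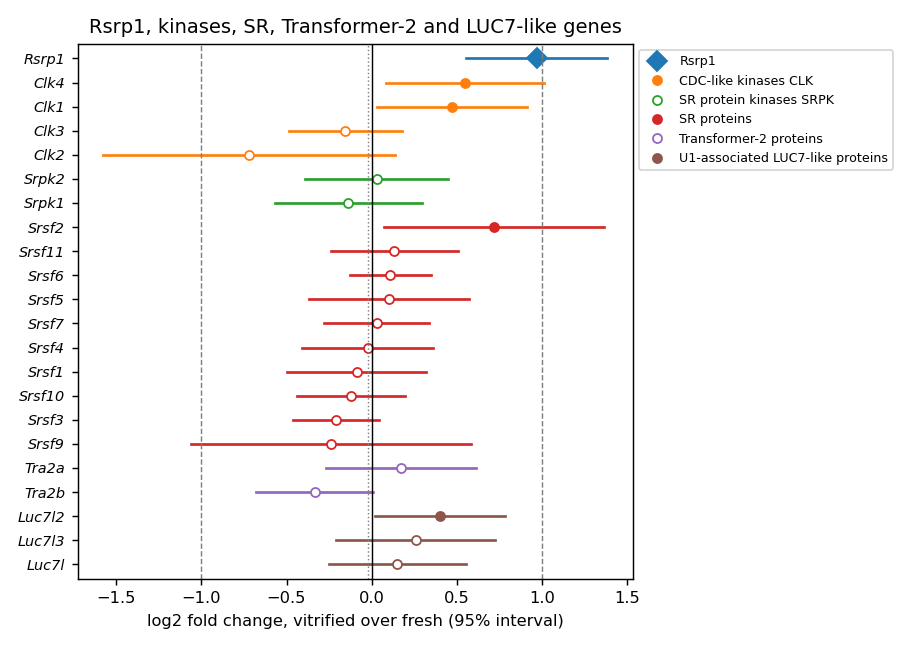
Log2 fold change of vitrified over fresh follicles (horizontal axis) with its derived 95% interval for Rsrp1 and the kinase, SR, Transformer-2 and LUC7-like genes, coloured by role. Filled symbols have p under 0.05, the diamond an adjusted p under 0.05, dashed lines mark 2-fold and the dotted line the median of all tested genes. Rsrp1, Clk4, Clk1, Srsf2 and Luc7l2 have intervals above 0, and most SR genes lie near 0.

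The Snrp genes, which encode the Sm ring and some of the proteins particular to the U1 and U2 particles, all had lower values in vitrified follicles, 12 of 12, while 53.2% of all tested genes did. None was called after adjustment, and 1 of 12 had a p under 0.05. Their median log2 fold change was -0.36, and their range was -0.80 to -0.08 per the authors' deposited table. The 67 other members had a median of -0.01, with 35 lower and 32 higher. Their median total was 868, against 264 for the Snrp genes. Of the 23 members with a total below 300, Snrp genes among them, 20 had values below 0. Of all tested genes below that total 52.7% did. The part of the total in the Snrp values was not tested. Snrpe, an Sm ring protein, had a log2 fold change of -0.54 (-0.99 to -0.09) with p = 0.018 and an adjusted p of 0.50 per the authors' deposited table. Among the other ring genes Snrpn, the imprinted form, stood at -0.58 (-1.25 to 0.09), Snrpd3 at -0.50 (-1.03 to 0.02) and Snrpg at -0.45 (-1.02 to 0.12) per the authors' deposited table. Snrpd1, Snrpd2, Snrpf and Snrpb stood at -0.28, -0.17, -0.11 and -0.08 per the authors' deposited table, with intervals that include 0. Snrpb, which encodes the main Sm B protein, had by far the highest total of the Snrp genes at 2886 and the smallest difference of the 12. The U1 protein gene Snrpc stood at -0.80 (-1.71 to 0.11) on a total of 71.8 per the authors' deposited table, and Snrpa, also of U1, at -0.16 (-0.53 to 0.21). The U2 protein genes Snrpb2 and Snrpa1 stood at -0.44 (-1.18 to 0.30) and -0.21 (-0.80 to 0.39) per the authors' deposited table. The U1 protein gene Snrnp70, which the Snrp names do not cover, was chosen after its values were seen. It stood at 0.07 (-0.28 to 0.43) on a total of 935 per the authors' deposited table. For Snrpf 85.4% and for Snrpn 34.1% of exonic bases overlap other genes, for Snrpn among them Snurf on the same strand, so their counts are uncertain.

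Transcript length was set beside these values, since many Snrp transcripts are short, with a median of 1205 bases against 3003 for all tested genes. Of 939 tested genes with a principal transcript of at most 1000 bases, 65.3% had values below 0, with a median log2 fold change of -0.11. The share was 52.7% for genes over 1000 and up to 2000 bases, with a median of -0.01. It was 48.0% for those over 2000 to 4000 bases, 55.6% over 4000 to 8000 and 58.9% over 8000. Spearman's rho between the log2 fold change and transcript length was -0.00075 over 10841 annotated tested genes. The 4 Snrp genes of at most 1000 bases had a median of -0.41 and the 8 longer ones a median of -0.32. The 16 other members of at most 2000 bases were split into 8 higher and 8 lower. The part of length in the Snrp values was not tested.

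Among the U2 particle's SF3 subunits, all 6 SF3B genes had values below 0, or 5 of 6 after centring on the median of all tested genes or removal of the trend on total, which put Sf3b6 above 0. SF3A genes had 2 above and 1 below under each scaling. Sf3b5, the smallest SF3B subunit, had the second lowest p of all members. Its log2 fold change was -0.80 (-1.25 to -0.35), 1.74-fold lower, with an adjusted p of 0.085 per the authors' deposited table. Sf3b1, which holds the branch point and is the target of splicing inhibitors, stood at -0.39 (-0.71 to -0.07) with p = 0.018 and an adjusted p of 0.51 per the authors' deposited table, on a total of 4706. For Sf3b3, Sf3b4, Sf3b2 and Sf3b6 the log2 fold changes were -0.13, -0.10, -0.04 and -0.01 per the authors' deposited table, with intervals that include 0. Sf3a2, with 16.1% of its exonic bases overlapping a gene on the opposite strand, had the highest value of the SF3 genes at 0.66 (-0.04 to 1.35) on a total of 156 per the authors' deposited table. Sf3a1 stood at 0.19 (-0.17 to 0.55) and Sf3a3 at -0.03 (-0.42 to 0.36) per the authors' deposited table.

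The U2AF genes, which encode the proteins that recognise the end of the intron, lay close to 0. U2af1 stood at 0.07 (-0.45 to 0.60), U2af2 at -0.11 (-0.75 to 0.53) and U2af1l4 at -0.09 (-0.84 to 0.66) per the authors' deposited table. Windows shared with other genes make up 51.2% for U2af1 and 76.2% for U2af1l4, so their counts are uncertain.

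The PRPF genes lay close to 0, with 7 higher and 6 lower and a median of 0.01. The interval lay within 2-fold for all 13, against 69.1% of all tested genes. Prpf8, the protein at the catalytic centre, stood at -0.18 (-0.77 to 0.41) on a total of 3540 per the authors' deposited table, with an error large for that total. Prpf6, Prpf4, Prpf31 and Prpf3, of the particle that joins U4, U5 and U6, had log2 fold changes of 0.10, 0.04, 0.01 and -0.13 per the authors' deposited table. Prpf39, a protein associated with the U1 particle, had the highest value of the group at 0.38 (-0.17 to 0.93) per the authors' deposited table. Prpf19, Prpf38b, Prpf4b, Prpf38a, Prpf18 and Prpf40b lay between -0.08 and 0.08 per the authors' deposited table.

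**Figure D3:**
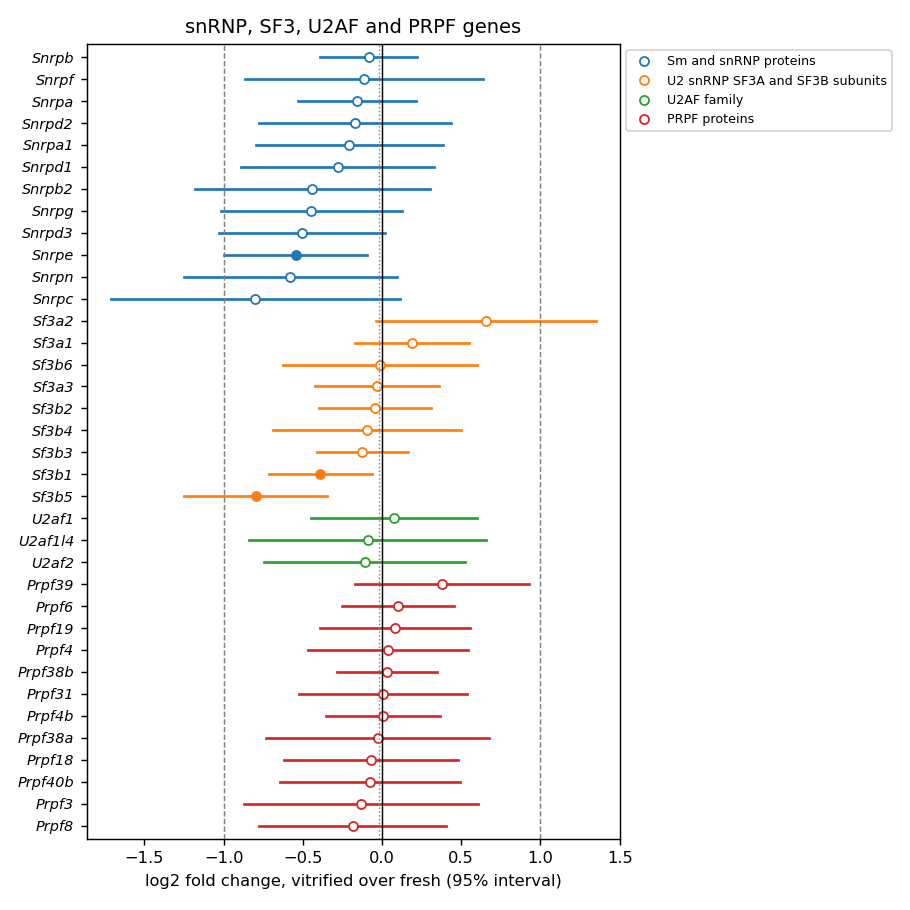
Log2 fold change of vitrified over fresh follicles (horizontal axis) with its derived 95% interval for the Snrp, SF3, U2AF and PRPF genes, coloured by role. Filled symbols have p under 0.05, dashed lines mark 2-fold and the dotted line the median of all tested genes. The 12 Snrp genes and the 6 SF3B genes lie below 0, Sf3b6 so close that it lies above the dotted line, and the 12 PRPF genes drawn lie around 0.

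The hnRNP genes held the 2 highest totals and the lowest total of the members and had the widest range of values of the groups, with 9 higher and 11 lower and a median of -0.02. Hnrnpll, known in T cells for setting the splicing of the Cd45 transcript, had the lowest p of the group. It stood at 0.78 (0.25 to 1.31), 1.72-fold higher, with p = 0.0038 and an adjusted p of 0.24 per the authors' deposited table. Hnrnpu, a nuclear scaffold protein that binds RNA and chromatin, stood at 0.72 (0.11 to 1.33) with p = 0.021 per the authors' deposited table, on a total of 3570. Its relative Hnrnpul1 stood at 0.36 (0.03 to 0.68) with p = 0.031 per the authors' deposited table, while Hnrnpul2 stood at -0.43 (-1.19 to 0.32). The lowest value of all members was that of Hnrnpa0, which binds AU-rich messenger RNA and had the lowest total, 68.3. It stood at -1.38 (-2.48 to -0.27), 2.60-fold lower, with p = 0.015 and an adjusted p of 0.47 per the authors' deposited table, and it was the only member with a fold change of at least 2.

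The 4 hnRNP genes of highest total had values near 0. Hnrnpk, which binds C-rich RNA, had the highest total at 13268 and a log2 fold change of 0.03 (-0.29 to 0.36) per the authors' deposited table. Hnrnpa2b1 stood at 0.17 (-0.21 to 0.56) and Hnrnpa1, a common repressor of exons, at -0.08 (-0.43 to 0.26) per the authors' deposited table. Windows shared with other genes make up 40.6% for Hnrnpk, 41.3% for Hnrnpa1, 60.7% for Hnrnpa3 and 69.1% for Hnrnpf, so reads of these genes could be divided with copies. Hnrnpf, at -0.04 (-0.28 to 0.20) on a total of 7847 per the authors' deposited table, had the same derived error of 0.12 as Srsf6. The remaining hnRNP genes, Hnrnpl, Hnrnpab, Hnrnpdl, Hnrnpc, Hnrnph2, Hnrnpr, Hnrnpd, Hnrnpm, Hnrnph3, Hnrnph1 and Hnrnpa3, lay between -0.46 and 0.12 per the authors' deposited table, none with a p under 0.05.

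**Figure D4:**
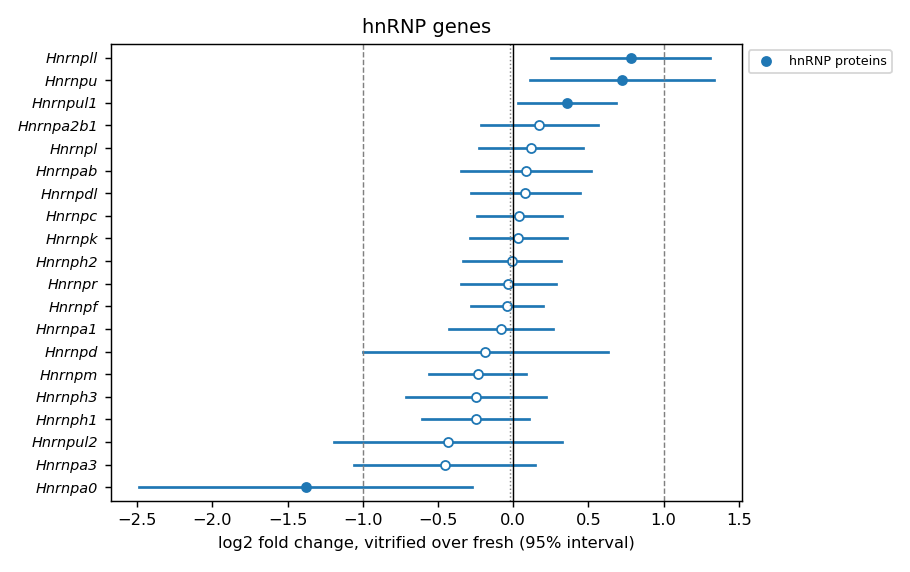
Log2 fold change of vitrified over fresh follicles (horizontal axis) with its derived 95% interval for the 20 hnRNP genes. Filled symbols have p under 0.05, dashed lines mark 2-fold and the dotted line the median of all tested genes. Hnrnpll, Hnrnpu and Hnrnpul1 have intervals above 0, Hnrnpa0 has one below 0, and the others include 0.

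Gene structure was compared across the members as a description. Sf3b5 and Hnrnpa0 are the 2 members annotated with a single exon, and both were among the 5 members with lower values at p under 0.05. Of 172 tested protein-coding genes of a single exon, 100 had values below 0, with a median of -0.06, 7 had a lower and 7 a higher value at p under 0.05. Transcripts annotated with a retained intron exist for 62 of the 79 members and for 6254 of 10841 annotated tested genes. They exist for all 8 members with a higher value at p under 0.05, but for 1 of the 5 with a lower value, Sf3b1. Sf3b5 and Hnrnpa0, with a single exon, have no intron to retain, so their place in this comparison was fixed in advance. The median total was 1376 for the 8 and 497 for the 5. Of the 17 members without such a transcript 15 had values below 0, against 32 of the 62 with one. Over all tested genes the shares were 53.8% without and 52.6% with such a transcript. Across the 79 members Spearman's rho between the log2 fold change and the number of such transcripts was 0.30, and with the pooled total it was 0.38. Over all tested genes the same values were 0.019 for 10841 annotated genes and 0.017 for 10963 genes. Members share the same 12 libraries and their pooled depth, so these are descriptions only. The table counts genes, not introns, so spliced and unspliced transcripts cannot be told apart here.

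The intervals limit how large a difference could have been missed. They lay within 2-fold for 62 of the 79 members, or 78.5%, against 69.1% of all tested genes. Within 1.5-fold they lay for 35, or 44.3%, against 23.2%. These counts rest on the two-sided normal test. With the same standard errors, a t distribution of 10 degrees of freedom would widen every interval, and its counts are not given here. Of the 12 Snrp genes 7 lay within 2-fold. Among the members of lowest total, the intervals of Hnrnpa0, Snrpc, Clk2 and Srsf9 reached beyond 2-fold. That of Hnrnpd, on a total of 103, lay just within it (-0.996 to 0.63).

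Other genes of splicing were taken from 5 lists of factors that the rule does not cover. Of their 174 tested genes 1 was called, 91 had higher and 83 lower values, the median log2 fold change was 0.02, and 15 had a p under 0.05, 9 higher and 6 lower. Called genes make up 0.529% of all tested genes, and those at p under 0.05 were 8.62% of these 174, against 7.02% of all tested genes, so both counts were near the background. The called gene was Zrsr1, an imprinted relative of U2AF, which rose. It was 3.14-fold higher with an adjusted p of 0.024 per the authors' deposited table, on a total of 124, and 9.17% of its exonic bases overlap Commd1 on the opposite strand. Among 65 other core spliceosome genes 35 were higher and 30 lower, with a median of 0.01. Mfap1a, part of the spliceosome before its activation, was 1.90-fold higher with an adjusted p of 0.16 per the authors' deposited table. Mfap1b, of the same list, had a lower value, at -0.27 (-0.74 to 0.20) on a total of 447 per the authors' deposited table. Shared windows make up 57.2% for Mfap1a and 61.7% for Mfap1b, so their counts are uncertain. Txnl4a, of the U5 particle, stood at -0.51 (-0.92 to -0.09) per the authors' deposited table. The LSM proteins form a ring like that of the Sm proteins, on U6 and in messenger RNA decay, and of 7 tested genes of Lsm1 to Lsm8, a subset chosen after the Snrp values were seen, 6 had values below 0. Their median was -0.28, and Lsm6 stood lowest at -0.73 (-1.34 to -0.10) with p = 0.022 per the authors' deposited table.

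SR-related and exon junction genes had 19 higher and 10 lower values with a median of 0.12, and none was called. Scaf4, which prevents early ends of transcripts, stood at 0.66 (0.23 to 1.10) and Pnn, an exon junction protein, at 0.64 (0.21 to 1.06) per the authors' deposited table, with adjusted p of 0.22 and 0.23, and Cherp at 0.26 (-0.07 to 0.58). Other regulators of alternative splicing had 25 higher and 22 lower, with 0 called. At p under 0.05 there were 6 of 47, or 12.8%, against 7.02% of all tested genes, with 3 higher and 3 lower. The hnRNP-like gene Raly stood at 0.66 (0.24 to 1.07) with an adjusted p of 0.20 per the authors' deposited table and Rbm6 at 0.54 (0.16 to 0.92). Genes that assemble the Sm ring on small nuclear RNA had 5 higher and 11 lower, a median of -0.09, and 0 called, with 0 at p under 0.05. Tgs1, which modifies the cap of small nuclear RNA, stood at -0.44 (-0.94 to 0.07), Prmt5, which methylates Sm proteins, at -0.32 (-0.78 to 0.15) and its partner Wdr77 at 0.26 (-0.11 to 0.63) per the authors' deposited table. Of 17 other kinase, phosphatase and import genes that act on SR proteins 0 were called and 1 had a p under 0.05. Dyrk1b stood at 0.64 (0.11 to 1.18), Dyrk2 at -0.39 (-1.05 to 0.26) and the SR protein importer Tnpo3 at -0.29 (-0.63 to 0.06) per the authors' deposited table.

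Cell markers were read beside these values. The 7 tested oocyte markers had values above 0, from 0.11 to 1.29 with a median of 0.58, per the authors' deposited table. The 7 tested theca markers had 5 above and 2 below 0, from -0.67 to 2.70 with a median of 1.19, and the 11 granulosa markers had 5 above and 6 below, with a median of -0.02, per the authors' deposited table. The 3 tested stroma markers had values above 0, with a median of 0.12. Both tested endothelial markers had values below 0, at -1.66 and -1.25, and the single immune marker stood at -1.05, per the authors' deposited table. None of these 6 lists held a called gene. The part of a different share of RNA from any of these cells in the values of the members was not tested.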

How the data were processed

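Single-follicle RNA was sequenced after a Smart-seq protocol, per the labels' protocols. Tools named without version or role, per the submitters' processing notes, are Bowtie2, HISAT2, Partek and DESeq2, with build mm10. How reads were counted, with or without strand and on which annotation, is not given in the sources. Per the file headers, the authors deposited 1 table with 11806 genes, each with a total count pooled over libraries, fold changes on the linear and log2 scales, the p-value and its step-up adjustment. Whole numbers within 0.001 make up 0.237% of the totals, which were therefore not used as counts. An adjusted p is given for 10963 genes, those with totals from 59.5 upwards. The depth per follicle is unknown, and 0 columns of values per follicle were used.

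The planned count model needs values per follicle, so the authors' test was used with 0.05 on their adjusted p over all genes. Standard errors and 95% intervals were derived from the log2 fold change and its p-value under a two-sided normal test (Python 3.11.15, SciPy 1.17.1). In simulated data for vitrified against fresh with 10963 genes, 20 simulations of 200 changed genes each, 47.5% of 2-fold and 93.4% of 4-fold changes were called and intervals covered 95.0% of true values. The simulated errors were normal with the derived standard errors, so that coverage was fixed in advance. No counts or follicles were simulated, so these values check the arithmetic and not the authors' test.

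Positions, principal transcripts, exonic overlap and 50-base windows taken every 25 bases came from GENCODE release M21 (GRCm38, the assembly called mm10), in which all 79 members matched by symbol. Promoter sequences came from RefSeq (GRCm38.p6). Members and lists were chosen with earlier results of these data known. Genes were named where the adjusted or unadjusted p was under 0.05, where they had the 3 highest totals or the extreme fold changes of their role, and in full for roles of at most 5 members. Further members are named to account for every role. Other genes of splicing are named for the 3 lowest p of each list, except Lsm6, Snrnp70 and Mfap1b. These exceptions were named after values were seen. A member and a gene of these lists that the rule names are not reported here, though counts and medians include them. Alternatives were a threshold of 0.10, no filter or a total of at least 120, a t distribution of 10 degrees of freedom, centring on the median, removal of a lowess trend on total, and leaving out members with shared windows.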

Additional observations from a re-analysis of the deposited data

How the results depend on the processing

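The call of Rsrp1 held, with the same direction, without a filter on totals, at a total of at least 120, after centring on the median and after removal of the trend on total. Leaving out the 5 members that share at least 50% of their windows kept its adjusted p as deposited, so that setting could not change the call. Its adjusted p ran from 0.0021 to 0.0036 over these. With a t distribution of 10 degrees of freedom it was lost (log2 fold change 0.97, adjusted p = 0.62), leaving 0 members called, as for all genes (0), and 9 members at p under 0.05, of which 4 were higher in place of 8. Whether that distribution suits the authors' test is not known. At a threshold of 0.10 there were 2 members called, Sf3b5 being added, and 78 of all tested genes against 58. The median of the members lay between -0.04 and -0.02. Only centring and removal of the trend can change the sign of a value, and under both 12 of 12 Snrp genes kept values below 0. The other alternatives can only leave genes out. The count was 11 of 11 at a total of at least 120, which leaves out Snrpc, and without shared windows, which leaves out Snrpf. Leaving out members with shared windows was planned for the median, and for the counts it was chosen after seeing the data. Of the 79 members 2 changed sign under both scalings, a check added after seeing the data for members outside the naming rule. Sf3b6 stood at 0.011 after centring and 0.0076 after removal of the trend, and Hnrnph2 at 0.012 and 0.011, against -0.011 and -0.01 as deposited. No paired analysis was possible because values per follicle are not in the table used; for the same reason a replicate block, another count model and leaving out single follicles were not run. The depth of single follicles is unknown.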
